A study of Homo sapiens with 4 samples.

Results

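The BMP antagonists described here are the 7 genes NOG, CHRD, GREM1, BAMBI, FST, TWSG1 and BMPER, of 20033 protein-coding genes in the annotation. For each gene, positions of GATA3 were taken within 100 kb of its 5′ end on hg38, anywhere in its gene body, or wherever the deposited file carried its symbol. A shared region was formed where a replicate 1 and a replicate 2 position lay no more than 100 bp apart. This gave 15 positions in replicate 1, 10 in replicate 2 and 7 shared regions, of 18456 positions, 12782 positions and 9136 shared regions on the 24 chromosomes. No position was added by its symbol alone.

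The positions came from GATA3 ChIP-seq of H1, an established line of human embryonic stem cells (hESCs). The cells were grown in mTeSR1, a medium for pluripotent growth, with BMP4 at 50 ng/ml for 6 h. The paper uses BMP4 at this dose in mTeSR1 to drive differentiation. Of the 4 samples, 2 were GATA3 ChIP replicates and 2 were their input chromatin. All 4 had received BMP4, and the labels name no genetic change. A GATA3 list from cells without BMP4 was not analysed here, so no position can be assigned to the treatment. The lists carried no peak height, fold or q-value, and agreement between the replicates is the only measure of error. Neither expression of the 7 genes nor markers of hESCs can be read from peak positions. The study's methods call the replicates biological, the labels do not say whether they came from separate cultures, and both came from 1 cell line.

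Bone morphogenetic proteins (BMPs) are secreted ligands that assemble type I and type II receptor kinases, which phosphorylate SMAD proteins that then enter the nucleus. Antagonists act before that step, either outside the cell, where they bind the ligand, or at the membrane. In the early embryo they shape gradients of BMP activity, and several are themselves switched on by BMP signalling, which closes a negative feedback loop. GATA3 is a zinc finger transcription factor that binds short sequences with GATA at their core.

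The sequences of the 7 shared regions are printed because they are the stretches of DNA at which both replicates placed GATA3. Each is the plus strand of hg38, 5′ to 3′, and all but one are taken around the centre of the region. Capitals mark a GATA consensus on either strand (AGATAA or AGATAG, with T allowed as the leading base, or the reverse complement of these) and any inverted repeat, in which AGAT is followed by 3 or 4 bases and then by ATCT. The name gives the gene and the distance from its 5′ end, with plus for downstream. The FST region at +6.1 kb lay in a UTR, and only 26 bases around its GATA consensus are printed, which leave out the centre of the region and the replicate 1 position.
BAMBI -95.4 kb (chr10:28582099-28582199): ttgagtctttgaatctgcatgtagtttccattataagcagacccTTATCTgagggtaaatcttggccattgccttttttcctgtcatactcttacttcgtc
BAMBI +7.8 kb (chr10:28685276-28685376): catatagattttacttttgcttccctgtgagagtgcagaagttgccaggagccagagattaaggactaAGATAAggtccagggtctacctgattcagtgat
BAMBI +9.8 kb (chr10:28687278-28687378): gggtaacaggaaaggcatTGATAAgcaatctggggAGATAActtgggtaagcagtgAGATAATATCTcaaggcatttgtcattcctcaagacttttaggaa
FST -53.6 kb (chr5:53426952-53427052): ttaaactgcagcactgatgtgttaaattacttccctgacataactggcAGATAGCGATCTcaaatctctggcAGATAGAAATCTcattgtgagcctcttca
FST +6.1 kb (chr5:53486658-53486683): aaggtacagaAGATAAGCATCTttga
NOG +86.2 kb (chr17:56679894-56679994): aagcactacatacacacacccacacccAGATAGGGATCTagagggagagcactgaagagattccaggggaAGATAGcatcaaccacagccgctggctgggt
BMPER +226.4 kb (chr7:34130684-34130784): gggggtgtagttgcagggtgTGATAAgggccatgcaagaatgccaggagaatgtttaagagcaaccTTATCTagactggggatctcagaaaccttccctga

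Of the 7 genes, 4 had a shared region in reach, BAMBI with 3, FST with 2, and NOG and BMPER with 1 each. CHRD, GREM1 and TWSG1 had none. Over all protein-coding genes, 47.5% had a shared region in the same reach, so 4 of 7 was near the background. No position of either replicate lay in reach of GREM1 or TWSG1, 2 of 7, beside 27.6% of all genes. The median number of shared regions was 1 over the 7 genes and 0 over all genes, and the means were 1 and 0.741. Among all genes, 5.79% had at least as many shared regions as BAMBI, 17.1% at least as many as FST, and 47.5% at least 1. The reach of the 7 genes added up to 1552 kb and held 4.51 shared regions per Mb, beside 2.96 per Mb of chromosome. Chromosome lengths also count stretches far from any gene, so these densities are not like for like. Gene neighbourhoods overlap and differ in gene density, and with 1 condition and 2 lists no test was made of these counts.

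**Figure D1:**
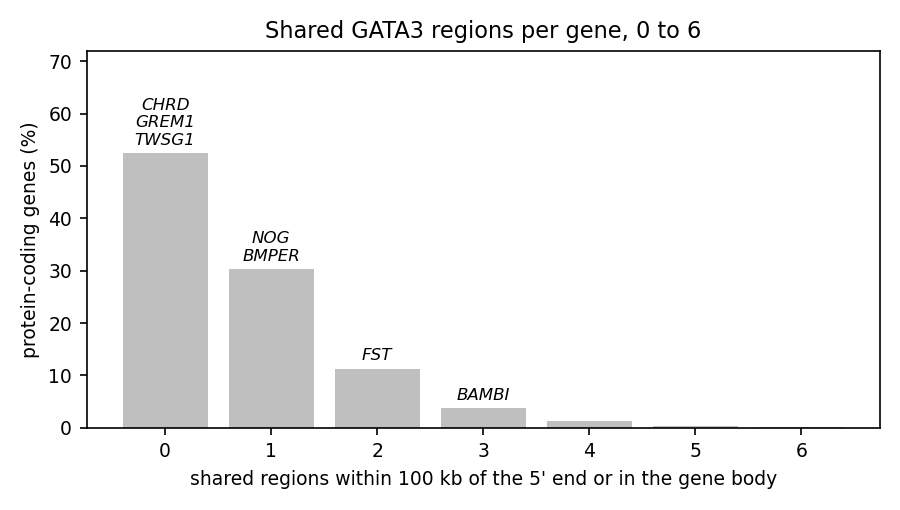
Share of protein-coding genes (%, bars) by the number of shared GATA3 regions within 100 kb of the 5′ end or in the gene body, with each antagonist named above the bar of its own number. CHRD, GREM1 and TWSG1 stood with the 52.5% of genes at 0, NOG and BMPER at 1, FST at 2 and BAMBI at 3.

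**Figure D2:**
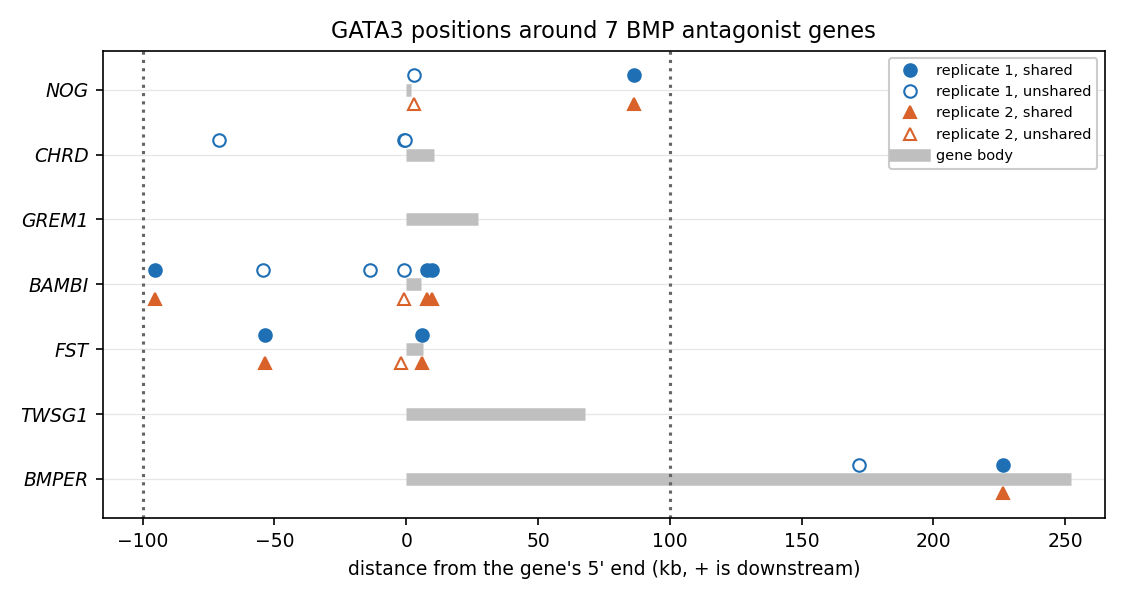
GATA3 positions around the 7 genes, as distance from the 5′ end in kb, with plus for downstream. Circles are replicate 1, triangles replicate 2, filled symbols are shared, grey bars are gene bodies and dotted lines mark 100 kb. BAMBI had positions on both sides of the gene, and the 2 positions of replicate 1 at BMPER lay in its gene body, beyond 100 kb.

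BAMBI encodes a transmembrane protein that resembles a type I receptor but lacks the kinase domain, and so blocks signalling at the membrane. The gene (ENSG00000095739.11, chr10:28677510-28682932, plus strand, 3 exons) had 6 positions in replicate 1 and 4 in replicate 2, and 2.55% and 5.0% of all genes had at least as many. It was the gene with the most positions among the 7 in either list. No other protein-coding 5′ end lay in its reach.

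Both replicates placed GATA3 downstream of BAMBI at a pair of neighbouring regions. At +7.82 kb, past the 3′ end and in no gene, replicate 1 gave 28685298 and replicate 2 gave 28685355, 57 bp apart. At +9.82 kb the positions were 28687332 and 28687325, 7 bp apart. The second of these regions held 5 GATA consensus sites in 200 bp, the most among the 7 regions, and the first held 1 AGATAA 20 bp from its centre. The third shared region lay upstream at -95.4 kb, with positions 28582135 and 28582164, 29 bp apart. It was in an intron of WAC, a gene of histone ubiquitination, whose 5′ end was closer (49.7 kb) than that of BAMBI. It was the only one of the 7 regions for which the antagonist was not the nearest protein-coding 5′ end, and the deposited name there was WAC-AS1. Both replicates carried the antagonist's name at 4 of the 7 regions. The upstream FST region and the BMPER region also carried other names.

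Just upstream of the BAMBI 5′ end each replicate had a position, but not the same one. Replicate 1 gave 28676542.5 (-0.968 kb, a position between 2 bases) and replicate 2 gave 28676714 (-0.796 kb). These were 171.5 bp apart and so did not count as shared. The window of 200 bp around the replicate 1 position held an AGATAA 21 bp away, and the window around the replicate 2 position held no GATA consensus. Replicate 1 alone also had 28623357 (-54.2 kb, 1 GATA consensus) and 28663704 (-13.8 kb, none). BAMBI and CHRD were the 2 of 7 genes with a replicate 1 position within 1 kb of the 5′ end, beside 4.84% of all genes, and BAMBI was the only 1 of 7 in replicate 2, beside 3.69%.

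FST encodes follistatin, a secreted protein that binds activins tightly and some BMPs more weakly. The gene (ENSG00000134363.12, chr5:53480626-53487134, plus strand, 6 exons) had 2 positions in replicate 1 and 3 in replicate 2. The positions of the upstream region, at -53.6 kb in no gene, were 53427001 and 53427003. At 2 bp apart they were the closest pair among the 7 genes, and an AGATAG spanned both. The other shared region, at +6.07 kb, gave 53486712 and 53486675, 37 bp apart, in the last exon of FST itself, in its 3′ UTR. It held 1 AGATAA and 1 AP-1 site, and its GC content of 35% was the lowest of the 7 regions. Replicate 2 alone had a position at 53478813 (-1.81 kb), with no GATA consensus in its window, and the nearest position of replicate 1 was 7899 bp away. BAMBI and FST were the 2 of 7 genes with a shared region within 10 kb of the 5′ end, beside 8.69% of all genes, and in both genes those regions lay downstream of the 5′ end.

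**Figure D3:**
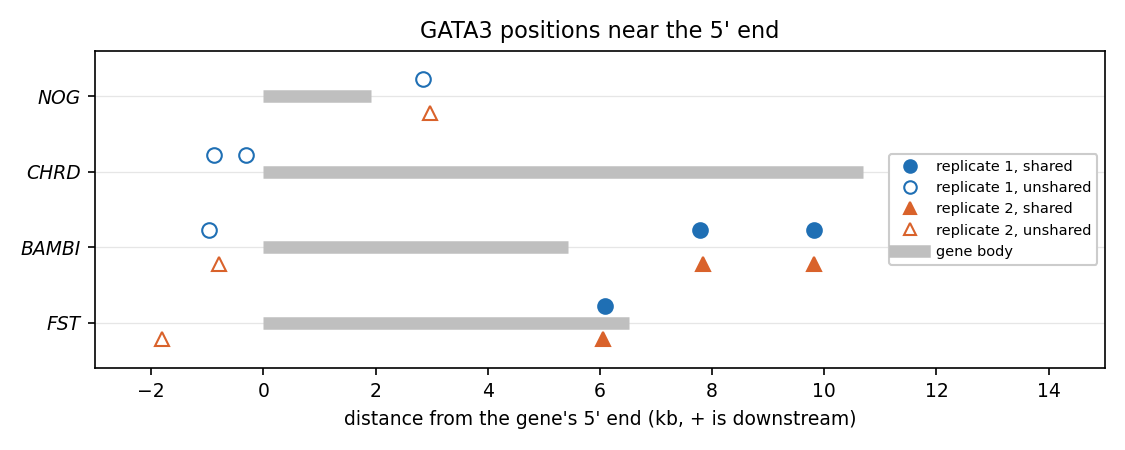
GATA3 positions from 3 kb upstream to 15 kb downstream of the 5′ ends of NOG, CHRD, BAMBI and FST, in kb, with symbols and bars as in the map of the 7 genes. The shared positions (filled) lay at +6.07, +7.82 and +9.82 kb, and every position upstream of a 5′ end in this range was unshared (open).

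NOG encodes noggin, a secreted dimer that binds BMPs over the surfaces they use to bind their receptors. The gene (ENSG00000183691.6, chr17:56593699-56595611, plus strand, 1 exon) had 2 positions in each replicate and no other protein-coding 5′ end in reach. The shared region lay at +86.2 kb, in no gene, with positions 56679939 and 56679950, 11 bp apart, and held 2 AGATAG. Close to the gene, replicate 1 gave 56596535 and replicate 2 gave 56596665, which lay 0.924 and 1.05 kb past the 3′ end and 130 bp from each other. Each of these had its own GATA consensus nearby, AGATAG 47.5 bp from the replicate 1 position and TTATCT 16.5 bp from the replicate 2 position. No GATA consensus lay in the span between the positions.

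The stretch around the pair at BAMBI is printed as an example of such a pair. It runs from 60 bp before the first position to 60 bp after the last, with capitals as above.
BAMBI -0.9 kb pair (chr10:28676482-28676774): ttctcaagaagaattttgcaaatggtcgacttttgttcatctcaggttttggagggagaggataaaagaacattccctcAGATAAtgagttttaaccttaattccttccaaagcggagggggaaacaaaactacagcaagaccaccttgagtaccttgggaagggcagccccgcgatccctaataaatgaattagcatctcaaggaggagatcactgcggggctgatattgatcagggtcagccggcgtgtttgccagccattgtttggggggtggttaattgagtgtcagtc

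CHRD, TWSG1 and BMPER belong to one extracellular system. Chordin binds BMPs through cysteine-rich modules until tolloid proteases cleave it, TWSG1 (twisted gastrulation) joins the chordin and BMP complex, and BMPER is a secreted protein with modules like those of chordin, known to act for or against BMPs depending on context. These 3 genes had 1 shared region between them, in BMPER.

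CHRD (ENSG00000090539.16, chr3:184380054-184390736, plus strand, 23 exons) had 3 positions in replicate 1 and 0 in replicate 2. They were 184308943 (-71.1 kb), 184379175 (-0.879 kb) and 184379742 (-0.312 kb). The nearest positions of replicate 2 were 152660, 222892 and 222659 bp away, so all 3 rested on 1 list. The last 2 lay in an intron of THPO, the thrombopoietin gene, which overlaps the start of CHRD, and the first lay in PSMD2, a proteasome subunit gene. With 6 other protein-coding 5′ ends in reach, CHRD had the most crowded neighbourhood of the 7. The 2 positions next to its 5′ end are printed because neither window held a GATA consensus, together with the FST position of the same kind.
CHRD -0.9 kb, replicate 1 alone (chr3:184379125-184379225): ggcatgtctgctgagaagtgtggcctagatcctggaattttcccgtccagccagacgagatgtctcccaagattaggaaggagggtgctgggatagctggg
CHRD -0.3 kb, replicate 1 alone (chr3:184379692-184379792): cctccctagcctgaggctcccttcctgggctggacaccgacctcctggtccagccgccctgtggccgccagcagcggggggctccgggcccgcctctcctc
FST -1.8 kb, replicate 2 alone (chr5:53478763-53478863): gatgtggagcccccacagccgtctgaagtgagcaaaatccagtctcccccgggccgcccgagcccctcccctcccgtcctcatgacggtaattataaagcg

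The window at -0.312 kb of CHRD had a GC content of 75.5%, above the 95th percentile (59.0%) of all unshared replicate 1 positions. At 58.0% and 56.5% the other CHRD window and the FST window were below the 95th percentiles of their lists, 59.0% and 63.4%. The part of base composition in these positions was not tested.

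BMPER (ENSG00000164619.10, chr7:33904308-34156427, plus strand, 15 exons) is the longest of the 7 genes at 252 kb, which widened its reach to 352 kb, while that of each other gene was 200 kb. Its shared region lay in intron 13 at +226.4 kb, with positions 34130751 and 34130717, 34 bp apart, and held TGATAA and TTATCT. Replicate 1 alone had 34076226 in intron 11 (+171.9 kb). Both were in reach only through the gene body, and no position lay within 100 kb of the BMPER 5′ end.

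TWSG1 (ENSG00000128791.12, chr18:9334767-9402420, plus strand, 5 exons) had no position in reach. The nearest of replicate 1 lay at -112.9 kb in an exon of ANKRD12, and the nearest shared region at -237.9 kb. GREM1, which encodes gremlin, a secreted BMP antagonist of the DAN family, also had none (ENSG00000166923.12, chr15:32718004-32745106, plus strand, 2 exons). Its nearest positions, 32846466 in replicate 1 and 32846569 in replicate 2, lay at +128.5 and +128.6 kb in an intron of FMN1, 103 bp apart, with no GATA consensus in either window. The nearest shared region of GREM1 was at +181.4 kb, again in an intron of FMN1.

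Positions of the replicates near the antagonists matched about as often as elsewhere. In replicate 1, 7 of 15 positions (46.7%, 95% Wilson interval 24.8 to 69.9%) had a replicate 2 position within 100 bp, beside 49.6% of all its positions. In replicate 2, 7 of 10 (70.0%, 39.7 to 89.2%) had one in replicate 1, beside 71.5%. The pairs of NOG and BAMBI lay over 100 and up to 200 bp apart, as did 2 of 15 positions of replicate 1 (13.3%, 3.74 to 37.9%), beside 4.67% of all, and 2 of 10 of replicate 2 (20%, 5.67 to 51.0%), beside 6.74%. In both replicates the share over all positions lay inside the interval of the few positions counted here. In the 7 shared regions the positions were 2 to 57 bp apart with a median of 29 bp, and over all shared regions the median was 23 bp and the upper quartile 43 bp.

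**Figure D4:**
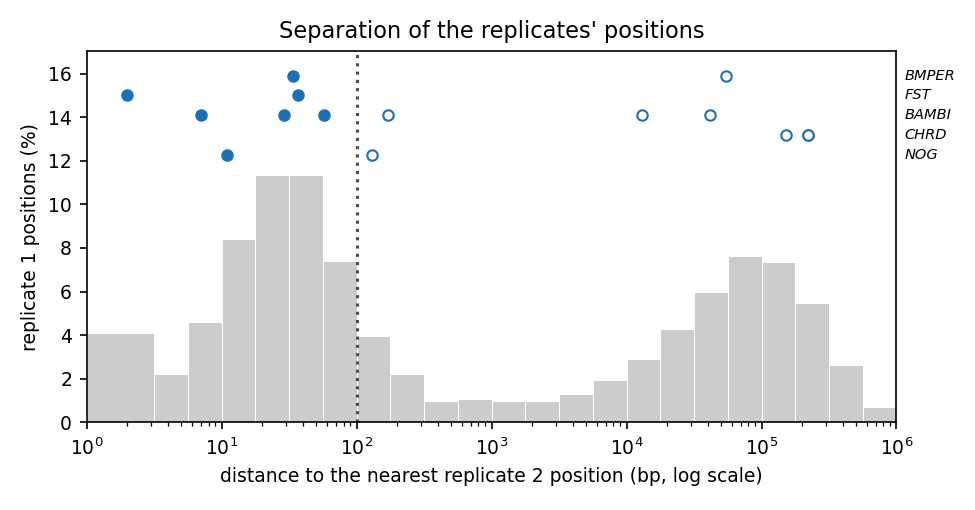
Distance from each replicate 1 position to the nearest replicate 2 position (bp, log scale), as a histogram over all replicate 1 positions (%, grey) and as 1 circle for each position of the antagonists, with a row per gene. The dotted line marks 100 bp, the leftmost bar holds distances from 0 to 3.16 bp, and the NOG and BAMBI circles just right of the line are the pairs at 130 and 171.5 bp.

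A GATA consensus was present in 200 bp around all 7 shared regions (100%, 95% Wilson interval 64.6 to 100%), beside 82.0% of all shared regions. By number of sites, 3 regions held 1, 3 held 2 and 1 held 5, while over all shared regions 47.4% held 1, 25.9% held 2 and 2.05% held 4 or more. AGATAA, read on either strand, was in 5 of 7 (71.4%), beside 51.6%, and the shorter GATAA was also in 5 of 7, beside 74.7%. Of the unshared positions, 5 of 8 in replicate 1 and 1 of 3 in replicate 2 held the consensus, beside 72.9% and 67.0% of all unshared positions. The shared regions had a median GC content of 41% (range 35 to 51%), and all shared regions a median of 44% (quartiles 39.5 and 48.5%).

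Some of the printed sequences hold a form of the motif that the choice of genes did not use, the inverted repeat of AGAT and ATCT. The repeat and its spacing of 3 or 4 bases were noticed in these sequences and then counted over all regions. Its count in the 7 is thus a description, and the interval does not allow for this choice. The repeat was in 4 of the 7 regions (57.1%, 25 to 84.2%), beside 16.6% of all 9136 shared regions. In 18272 windows placed 1 kb to either side of all shared regions the share was 1.10%, but these windows were not chosen to hold a GATA consensus. Among shared regions with a GATA consensus the share was 16.9%. Both FST regions were among the 4, and regions of 1 gene are not independent. The repeat with 4 bases was in 3 of 7, beside 9.15% of all shared regions. The repeat with 3 bases was in 1 of 7, beside 7.57%. With 4 bases between the arms it read AGATAGGGATCT at NOG, AGATAGCGATCT and AGATAGAAATCT at the upstream FST region, and AGATAAGCATCT in the FST exon. With 3 bases it read AGATAATATCT at BAMBI +9.8 kb. The AGAT arm was part of a GATA consensus in all 5 instances, so the motifs overlap. None of the unshared positions of the 7 genes held it, 0 of 8 and 0 of 3, beside 13.9% and 11.3% of all unshared positions.

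**Figure D5:**
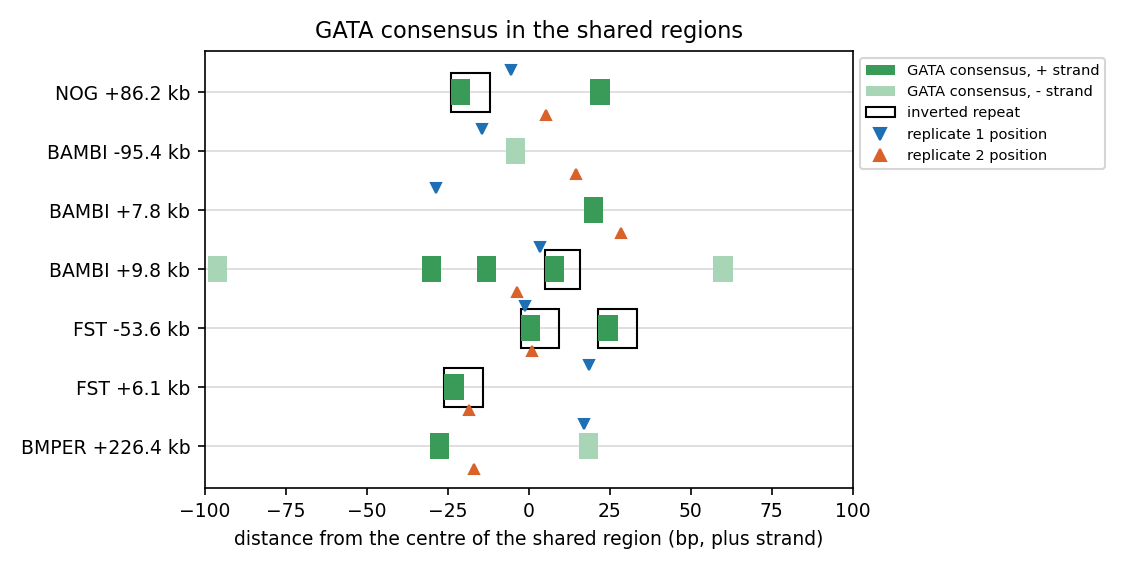
GATA consensus sites (filled boxes, dark for the plus and pale for the minus strand) and inverted repeats (outlines) in the 7 shared regions, in bp from the centre of each region, with the position of each replicate as a triangle. In each of the 7 regions at least 1 site lay within 23 bp of the centre, and 4 regions carried an outlined repeat.

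Each motif of another factor that was sought lay in at most 2 of the 7 regions. The SMAD box GTCTG was in 2 (28.6%), beside 36.1% of all shared regions, and the GC-rich SMAD site GGCGCC in 0, beside 1.96%. The octamer ATGCAAAT, bound by OCT4, was in 0, beside 5.07%. The SOX motif (ACAAAGG or ACAATGG) was in 0, beside 13.3%, and the E-box CACCTG in 0, beside 13.5%. The AP-1 site (TGACTCA or TGAGTCA) and the TEAD motif GGAATG were in 1 each, beside 5.64% and 18.9%. A count of 0 in 7 allows a share of up to 35.4% by the Wilson interval, so these counts set no difference from the other regions. Among the unshared positions, GGCGCC was in 1 of 8 in replicate 1 and 2 of 3 in replicate 2, beside 2.08% and 2.80% of all unshared positions. Those windows were both NOG windows of the pair past its 3′ end and the replicate 2 window at BAMBI. Their GC content was 58.0% (NOG, replicate 1), 64.5% (NOG, replicate 2) and 55.0% (BAMBI). The medians over all unshared positions were 43% in replicate 1 and 44.5% in replicate 2. The part of base composition in these counts was not tested. The NOG windows overlap and held the same GGCGCC, so that site was counted once in each replicate.

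Of the RefSeq promoters (GRCh38.p14, 250 bases before to 50 after the start), 6 of the 7 genes were matched, and NOG was not. The FST promoter held a GATA consensus, and those of CHRD, GREM1, BAMBI, TWSG1 and BMPER did not, beside 25% of 35116 promoters. No shared region lay in any of these windows.

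Other genes of the BMP pathway were read in the same reach. Of 14 other secreted antagonists 6 had a shared region, and CRIM1, a membrane protein with chordin-like modules, had the most (4 regions). Of the chordin proteases 1 of 3 had a region (TLL1), and of the ligands 2 of 5, both within 10 kb (BMP4 at +6.25 kb and BMP7 at -2.78 kb). All 6 receptors had one, none within 10 kb, and all 4 SMADs, of which SMAD5 lay within 10 kb (+0.576 kb). Of 6 intracellular inhibitors 4 had a region, within 10 kb at SMAD7 (+2.49 kb), which blocks receptors, and SKIL (-2.61 kb), a SMAD corepressor. Of 4 ID genes, targets of BMP signalling, 2 had one, within 10 kb at ID1 (+2.21 kb). In all, 25 of these 42 genes had a shared region, to be read against the 47.5% of all genes. Within 10 kb of the 5′ end it was 7 of 42, to be read against 8.69% of all genes. The lists were chosen with earlier results of these data known, and no test was made.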

How the data were processed

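GATA3 ChIP-seq peak lists of 2 replicates of H1 hESCs were analysed; the 2 inputs entered only through the authors' peak calling. According to the study's methods and the submitters' processing notes, the authors used cutadapt for trimming, bowtie for alignment to hg38 and Picard for duplicates, filtered blacklisted regions and called peaks with MACS2 in each replicate against its input. The deposited values are genome positions with a gene name, and how a peak was reduced to a position is not given. The positions on chromosomes numbered 18456 and 12782, which are not the peak numbers that the paper gives for its replicates. The reason for the difference was not tested. Whether bases were counted from 0 or 1 is not given in the sources used here, so each position is uncertain by 1 bp or more. Depth cannot be read from these files.

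Positions were compared with hg38 and GENCODE 44 in Python 3.11.15 (numpy 2.4.6, scipy 1.17.1, pandas 2.3.3, pysam 0.24.0). Shared positions were linked within 100 bp. Motifs were sought on both strands in windows of 200 bp. Shares carry 95% Wilson intervals, which cover counting error only. Counting was tested on simulated data. Genes and lists were chosen with earlier results of these data known. Genes named are the 7 antagonists, the list genes with a shared region within 10 kb, and nearest genes where these differ. CRIM1, TLL1 and the genes that hold a position were named after their values were seen. A few items that these rules would name are not reported here. Alternatives covered the reach, the sharing distance, the motif, the window, the annotation and single replicates.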

Additional observations from a re-analysis of the deposited data

How the results depend on the processing

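The number of antagonists with a shared region was 4 at sharing distances of 50, 250 and 500 bp. It was 3 at a reach of 50 or 10 kb with the gene body. There NOG dropped out, and BMPER counted only through its gene body. The number was 3 at 100 kb without the gene body, where BMPER dropped out, and 7 at 250 kb. The shared regions of the antagonists numbered 4 at 50 kb, 4 at 10 kb and 17 at 250 kb. With either replicate left out nothing can be shared, and the positions of the other list numbered 10 to 15, in reach of 4 genes without replicate 1 and 5 without replicate 2. Over all genes the share with a region was 45.6% with all annotated genes, 32.3% at 50 kb, 19.0% at 10 kb, 45.0% without the gene body, 75.8% at 250 kb, 41.2%, 50.2% and 50.7% at sharing distances of 50, 250 and 500 bp, and 57.2 to 68.5% with either replicate left out. The share of replicate 2 positions that were shared was 90.0% at 250 bp and 90.0% at 500 bp, since the pairs of NOG and BAMBI then counted. The GATA consensus was in 100% of regions in windows of 100 and 400 bp, and in 80.0% of the positions of either single list. No share over all regions or positions is given for these settings, so they show no difference from other regions. The share was 71.4% when only AGATAA (51.6% of all shared regions) or GATAA (74.7%) was sought. With GATAA the share was thus below that of all regions and not above it. Without replicate 1 the 4 of 7 genes were no longer above the share of all genes (57.2%). At 100 kb without the gene body, the 3 of 7 genes were below the share of all genes (45.0%). The reach of 250 kb, the sharing distances and single replicates for the share over all genes, and the inverted repeat were chosen after seeing the data. No paired analysis was possible because the inputs had no file analysed here and no test was made. Lists of positions without heights limit every statement to presence and number.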

Other observations

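Shared regions also lay between the reach of 100 kb and 250 kb from the 5′ end of the antagonists. Around NOG they were at -152.2 kb in an intron of ANKFN1, and at +114.5 and +125.2 kb in no gene, each with 1 GATA consensus. BMPER had one at -113.5 kb in an intron of BBS9, with positions 33790822 and 33790836, 14 bp apart. GREM1 had regions at +181.4 and +238.2 kb, both in FMN1. BAMBI had regions at -233.3 kb in an intron of LINC02652, with positions 28444211 and 28444207, 4 bp apart, and at +201.1 kb in an intron of LINC01517, with positions 28878649 and 28878651, 2 bp apart. CHRD had a region at -223.7 kb and TWSG1 one at -237.9 kb. All these regions lie beyond the distance set for the report and are given as values. At a reach of 250 kb with the gene body, 7 of 7 antagonists had a shared region, beside 75.8% of all genes.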
